A study of Mus musculus with 5 samples.

Results

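Genes that encode the splicing machinery were examined in peak lists from chromatin immunoprecipitation followed by sequencing (ChIP-seq) in mouse embryonic stem cells (mESCs). Members were the protein-coding genes of GENCODE release M21 on chromosomes 1 to 19 and X whose symbols begin with *Snrp*, *Srsf*, *Sf3a*, *Sf3b*, *Lsm*, *Prpf* or *Hnrnp*, which gave 79 of 21755 genes. One of them, *Lsmem1*, carries the prefix but encodes a membrane protein unrelated to splicing. Separate lists were deposited for REX1, for RNF12 WT and for its mutant RNF12 H569A,C572A, and each came from 1 library of female mESCs of a 129/Sv-Cast/Ei hybrid background, with the tagged protein precipitated through its V5 tag. RNF12, encoded by *Rlim*, is a ubiquitin ligase that targets the transcription factor REX1, and the H569A,C572A mutant is catalytically inactive. The RNF12 samples are labelled Rlim+/- with FLAG-V5-RNF12 WT or with FLAG-V5-RNF12(H569A,C572A). These transgenes were driven by the pCAG promoter and stably electroporated into a hybrid line selected with puromycin. The protocol in the labels, written for the RNF12 experiments, gives 15 µM MG132, a proteasome inhibitor, for 3 h, and cross-linking of 100000000 cells with 2 mM DSG and 1% formaldehyde. The REX1 sample is labelled WT with FLAG-V5-REX1. The study describes REX1 occupancy as coming from earlier work, so it is unclear whether this protocol applies to that sample. The 2 control samples are labelled WT and titled as the REX1 input and the RNF12 input, but carry V5 as their antibody. They were not analysed here, and the peak lists do not say which control was used for each. Values without a list name are given in the order REX1, RNF12 WT, RNF12 H569A,C572A, and distances are negative upstream of a TSS.

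The spliceosome removes introns from pre-mRNA. It is assembled from small nuclear ribonucleoproteins (snRNPs), each built on an RNA that is wrapped by a ring of Sm proteins or, for U6, of LSM proteins. U1 recognises the 5′ splice site, U2 with its SF3A and SF3B complexes recognises the branch point, and the tri-snRNP with its PRPF proteins brings in the catalytic core. SR proteins (SRSF) and heterogeneous nuclear ribonucleoproteins (HNRNP) bind the transcript and promote or repress the use of individual exons. These genes are active in nearly all cells, mESCs included, and most have CpG island promoters.

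A promoter summit was a peak summit within 1 kb of any annotated transcription start site (TSS) of the gene. In each list, 76 of the 79 members had one (96.2%, 95% Wilson interval 89.4% to 98.7%). Over all protein-coding genes the shares were 67.5%, 68.9% and 67.7%, below the interval of the members. Of the members, 65 (82.3%) had a CpG-rich promoter, defined as a GC content of at least 55% and an observed to expected CpG ratio of at least 0.65 within 250 bp of the TSS of the principal transcript, compared with 43.8% of all protein-coding genes. Among all CpG-rich protein-coding genes the shares were 97.2%, 98% and 99.6%, and among the CpG-rich members a summit was found at 64, 65 and 65 of 65. The difference between members and all genes was therefore not seen among CpG-rich genes. Intervals cover counting error only, and with 1 library per list no difference between lists was tested.

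A list of 75 further spliceosome genes, such as helicases, U2AF and step factors, gave 73 of 75 with a promoter summit in each list (97.3%, 90.8% to 99.3%). *Cwc15* and *Rnpc3* lacked one for REX1, *Slu7* and *Zmat2* for RNF12 WT, and *Dhx8* and *Zmat2* for RNF12 H569A,C572A. Other housekeeping families were close to these shares. Proteasome subunit genes had a summit in 94%, 96% and 96% of 50 genes, translation initiation and elongation factor genes in 89.6%, 94% and 97% of 67, and cytosolic ribosomal protein genes in 92.2%, 90.2% and 88.2%.

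**Figure D1:**
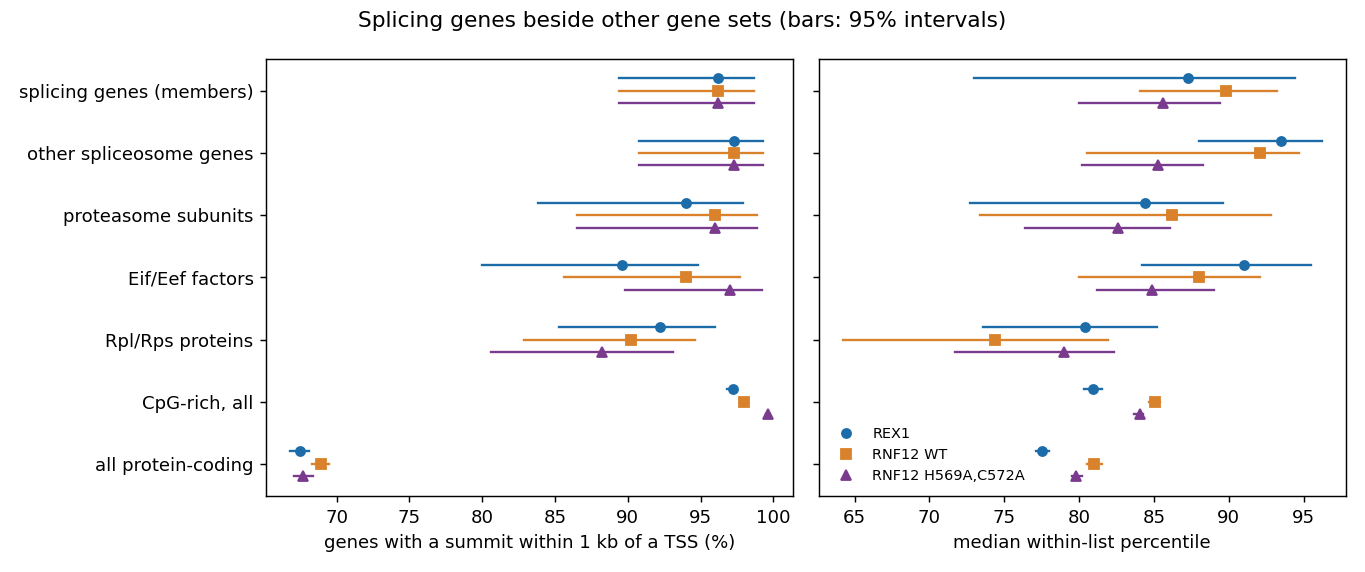
Share of genes with a promoter summit (left, percent) and median within-list percentile of fold enrichment of the strongest promoter summit (right) for splicing genes and other gene sets in the 3 lists. Points are the values and bars their 95% intervals, and the members lie above all protein-coding genes in both panels but beside CpG-rich genes in the left one.

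Peak height was read as the fold enrichment over the control that the authors deposited, and it was ranked only within its own list, as the percent of peaks in that list with a lower value. At the strongest promoter summit of each member, the median percentile was 87.3 (95% interval of the median 73 to 94.4) in the REX1 list, 89.8 (84.1 to 93.2) in the RNF12 WT list and 85.6 (80 to 89.4) in the mutant list. All protein-coding genes with a promoter summit had medians of 77.5, 81 and 79.8. CpG-rich protein-coding genes had 80.9, 85.1 and 84.1, each of which lies inside the interval of the members, as does the all-gene median for REX1. Of the 79 members, 34 (43%), 37 (46.8%) and 26 (32.9%) were in the top 10% of their list, beside 18.9%, 23.5% and 14.5% of all protein-coding genes and 30.8%, 38.4% and 27.8% of CpG-rich ones. The other spliceosome genes had medians of 93.5, 92.1 and 85.3.

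**Figure D2:**
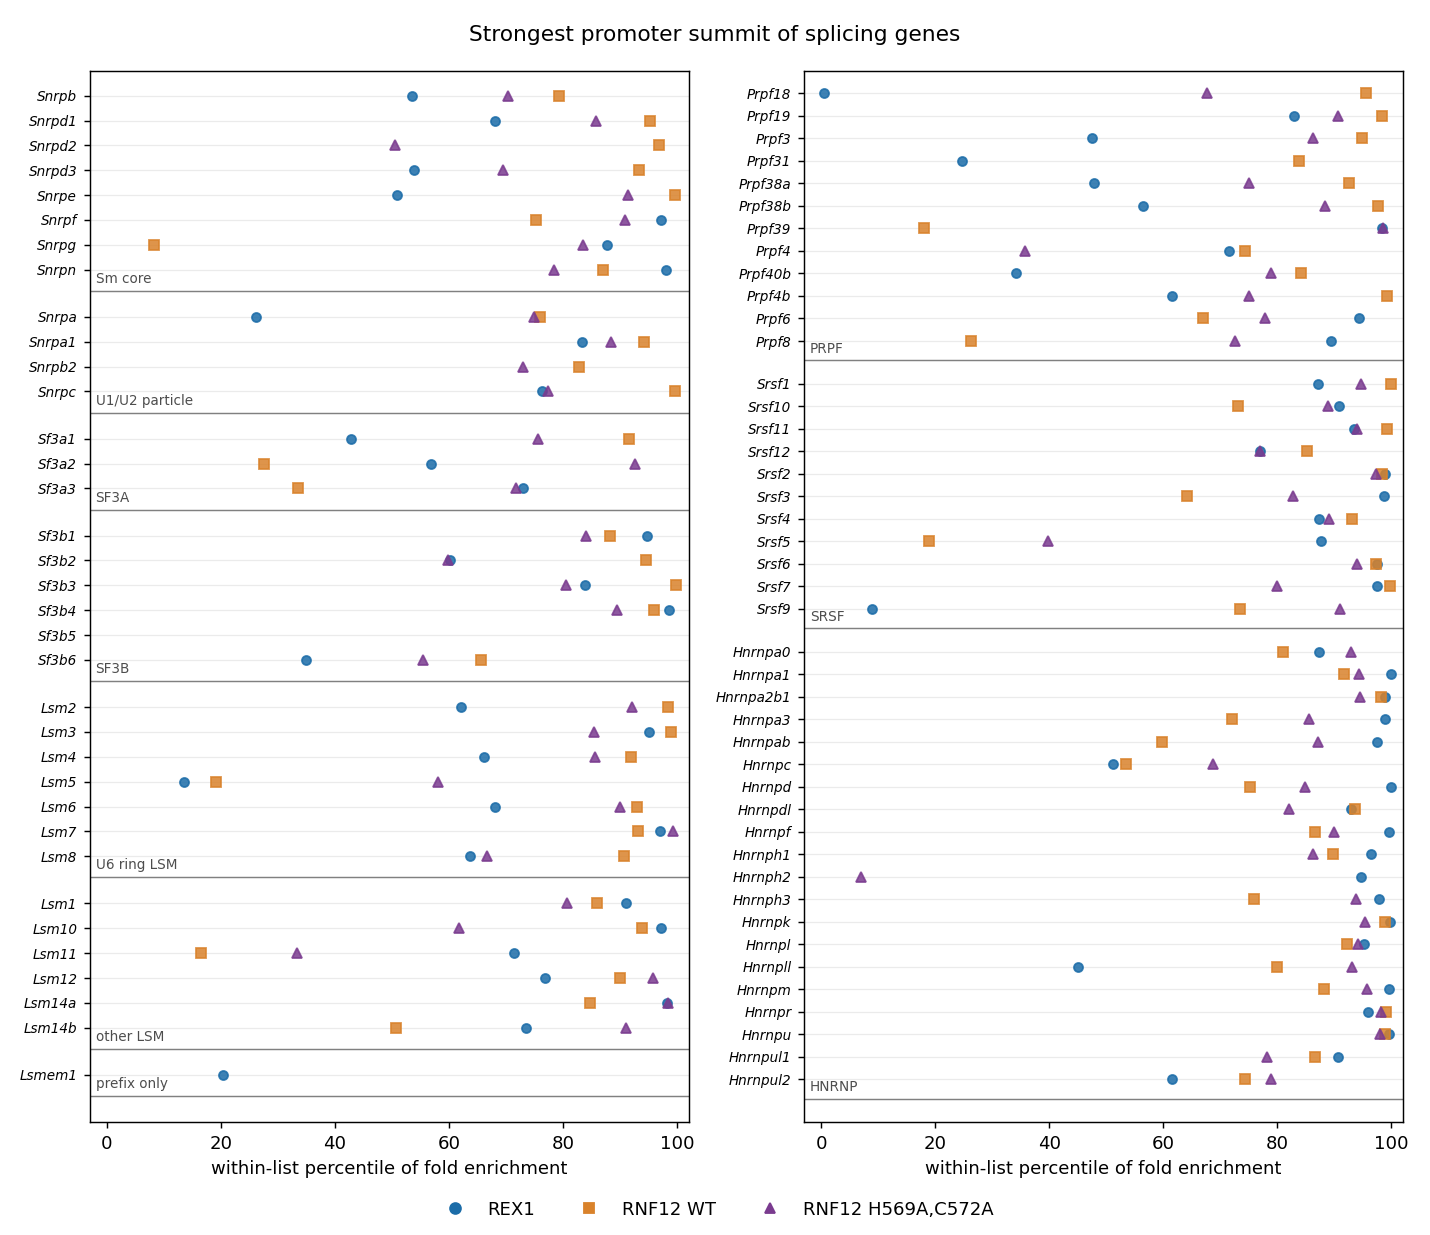
Within-list percentile of fold enrichment at the strongest promoter summit of the members, with 1 left out (rows, grouped by role) in the 3 lists (circles REX1, squares RNF12 WT, triangles RNF12 H569A,C572A). Most symbols lie to the right, with REX1 values near the right edge for the HNRNP genes, and *Sf3b5* has no symbol.

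In total 73 members (92.4%) had a promoter summit in all 3 lists, beside 60.7% of all and 95.2% of CpG-rich protein-coding genes. The 2 RNF12 lists may rest on the same control, so a shared call is not independent support. The strongest promoter peak was in the top 10% in all 3 lists at 11 members, among them the 6 HNRNP genes *Hnrnpa1*, *Hnrnpa2b1*, *Hnrnpk*, *Hnrnpl*, *Hnrnpr* and *Hnrnpu* and the 3 SRSF genes *Srsf2*, *Srsf6* and *Srsf11*. These 11 were 13.9% of the members, beside 3.9% of all protein-coding genes. The same share among CpG-rich genes was not computed, and 82.3% of members are CpG-rich, beside 43.8% of all genes.

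The REX1 list led with HNRNP genes, and sequences around several of its summits are given here because they hold a motif of the YY1 family, to which the zinc fingers of REX1 belong. ATGGCNGC, with N as any base, was looked for on either strand up to 50 bp from the strongest REX1 summit, as was AAGATGGC, the YY1 core, which overlaps it where a site reads on into NGC. The sequences are from GRCm38 (mm10), on the strand of the gene and 5′ to 3′, and capitals mark the matches. Windows are shortened so that at most 30 bases lie in a UTR. *Hnrnpm* is at chr17:33685342-33685409, *Hnrnpk* at chr13:58401540-58401569, *Hnrnpa2b1* at chr6:51469217-51469317 and *Srsf7* at chr17:80207033-80207133, all on the minus strand. *Lsm14a* at chr7:34389967-34390067, *Lsm7* at chr10:80855175-80855275 and *Lsm5* at chr6:56704626-56704698 are also on the minus strand. *Sf3b4* at chr3:96172544-96172631 and *Prpf4b* at chr13:34875624-34875718 are on the plus strand.
Hnrnpm: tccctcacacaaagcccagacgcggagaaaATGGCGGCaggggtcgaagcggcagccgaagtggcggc
Hnrnpk: ccattacgcggGCCGCCATttcctgtcgga
Hnrnpa2b1: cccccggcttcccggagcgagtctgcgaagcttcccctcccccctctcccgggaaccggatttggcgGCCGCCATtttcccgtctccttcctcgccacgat
Srsf7: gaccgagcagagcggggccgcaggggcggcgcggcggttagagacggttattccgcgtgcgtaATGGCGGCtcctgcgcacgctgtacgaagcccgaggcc
Lsm14a: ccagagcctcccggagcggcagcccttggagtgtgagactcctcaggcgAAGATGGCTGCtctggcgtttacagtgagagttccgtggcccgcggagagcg
Lsm7: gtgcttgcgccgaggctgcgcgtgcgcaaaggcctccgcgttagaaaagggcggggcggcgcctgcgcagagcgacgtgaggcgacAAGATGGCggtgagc
Lsm5: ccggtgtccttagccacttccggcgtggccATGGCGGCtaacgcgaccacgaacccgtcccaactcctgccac
Sf3b4: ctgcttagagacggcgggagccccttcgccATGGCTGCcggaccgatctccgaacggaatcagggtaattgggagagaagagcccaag
Prpf4b: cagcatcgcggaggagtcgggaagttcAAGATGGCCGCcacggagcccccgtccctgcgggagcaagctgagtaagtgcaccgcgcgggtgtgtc

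ATGGCNGC was found at 15 of the 76 REX1 promoter summits of members (19.7%, 12.3% to 30%), beside 13.7% of those of all protein-coding genes and 14.9% of CpG-rich ones, and the interval includes both. It was present at 6 of 20 HNRNP genes, 3 of 11 SRSF genes and 6 of the other 45 members. AAGATGGC was found at 3 of 76 (3.95%, 1.35% to 11%), beside 4.8%. In *Hnrnpm*, *Sf3b4*, *Lsm5* and *Prpf4b* the ATG of ATGGCNGC is the annotated start codon of the gene itself, and in *Lsm7* and *Prpf4b* the ATG of AAGATGGC is. That was 4 of the 15 members with ATGGCNGC (26.7%) and 2 of the 3 with AAGATGGC, beside 22.9% of 2018 and 36.2% of 704 protein-coding genes with these matches. The first base of the match lay 13 bp from the REX1 summit in *Hnrnpm*, 7 bp in *Sf3b4*, 8 bp in *Lsm5*, 14 bp in *Prpf4b* and 36 bp in *Lsm7*. These 5 genes ranged widely in height, from the 13.45th percentile for *Lsm5* to the 99.65th for *Hnrnpm*. In *Hnrnpk* and *Hnrnpa2b1* the match reads against the direction of transcription.

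At the strongest RNF12 summits, ATGGCNGC was found at 6 of 76 members in the RNF12 WT list (7.89%, 3.67% to 16.2%, beside 5.34% of all genes) and at 7 in the mutant list (9.21%, 4.53% to 17.8%, beside 5.88%). The GC box of SP and KLF factors, GGGCGGGG, was found at 6, 8 and 11 member summits of the 3 lists, beside 4.8%, 6.87% and 12% of all genes, and the ETS string CCGGAAGT at 4, 2 and 5, beside 2.2%, 2.73% and 2.37%. CCAAT was found at 7, 9 and 3 (9.21%, 11.8% and 3.95%, beside 7.37%, 6.26% and 4.5%), and GCATGCGC, the core of the NRF1 site, at 1, 2 and 0 (1.32%, 2.63% and 0%, beside 2.12%, 2.34% and 2.67%). The ZFP143 core ACTACAAT was at no member summit, beside 0.164%, 0.147% and 0.0679% of all genes, and the CRE string TGACGTCA at 0, 0 and 1, beside 0.688%, 0.76% and 0.95%, which is near the background. TATAAA was at 2 REX1 summits and at no RNF12 summit, beside 0.654%, 0.293% and 0.156% of all genes, so its absence in the RNF12 lists is near the background. The share of all genes lay outside the interval of the members in 3 cases, namely CCGGAAGT in the mutant list (6.58%, 2.84% to 14.5%, beside 2.37%), CCAAT in the RNF12 WT list (11.8%, 6.36% to 21%, beside 6.26%) and TATAAA in the REX1 list (2.63%, 0.725% to 9.1%, beside 0.654%). The share of CpG-rich genes lay inside it for CCGGAAGT (2.89%) and outside it for CCAAT (5.87%) and TATAAA (0.616%). A match is a description of the window only.

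HNRNP genes had the highest median REX1 percentile of the role classes. Those with a promoter summit held a median of 3 REX1 promoter summits, beside 2 for all genes, so the strongest was taken from more summits. The part of this in their percentiles was not tested. All 20 had a REX1 promoter summit, with a median percentile of 97 (93 to 99.5), and 16 of 20 (80%) were in the top 10% of the list, beside 18.9% of all, 30.8% of CpG-rich and 56% of the other spliceosome genes. Their medians were 86.7 in RNF12 WT, where 19 had a summit, and 91.4 in RNF12 H569A,C572A. *Hnrnpa1*, which encodes an abundant repressor of exon inclusion, had the highest REX1 peak of all members, with a fold enrichment of 29.25 (99.96th percentile) at -449 bp from its nearest TSS. Its RNF12 WT peak was at the 91.72nd and its RNF12 H569A,C572A peak at the 94.37th percentile. The TSS of *Cbx5* lies 616 bp from a TSS of *Hnrnpa1*, so the peak cannot be given to one gene. *Hnrnpd*, which encodes the AU-rich element binding protein AUF1, had a REX1 fold enrichment of 24.68 (99.92nd) at -4 bp. Its strongest RNF12 WT peak (75.28th) lay 921 bp downstream of a TSS, and the nearest of its 7 RNF12 WT promoter summits lay at -3 bp.

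*Hnrnpk*, the gene of a poly-C binding protein, was high in every list, at the 99.81st, 98.87th and 95.46th percentiles, with summits at 15, 3 and -21 bp from a TSS. *Hnrnpu*, which encodes the scaffold attachment factor SAF-A, was at the 99.65th, 98.95th and 98th percentiles. *Hnrnpr* was at the 95.84th, 99.07th and 98.2nd. *Hnrnpm* had a REX1 fold enrichment of 18.05 (99.65th) directly at a TSS, beside the 88.26th and 95.77th percentiles. The lowest REX1 value of the class was at *Hnrnpll*, with the 45.11th percentile for REX1, the 79.95th for RNF12 WT and the 93.1st for RNF12 H569A,C572A. The X-linked *Hnrnph2*, whose TSS is 54 bp from that of *Gla*, was at the 94.61st percentile for REX1 and the 7.042nd for RNF12 H569A,C572A, and had no RNF12 WT promoter summit, the nearest being 11294 bp downstream.

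SRSF genes all had a promoter summit in each list, with medians of 90.7 (77 to 98.8), 93.2 (64.1 to 99.8) and 89.1 (76.9 to 94.7) over 11 genes. *Srsf1*, the gene of the prototype SR protein, had the highest RNF12 WT peak of all members, with a fold enrichment of 13.23 (99.95th percentile) at -94 bp from a TSS, and was at the 87.15th percentile for REX1 and the 94.72nd for RNF12 H569A,C572A. *Srsf7* was at the 97.46th, 99.75th and 80th percentiles. *Srsf2* had the highest REX1 value of the class (98.94th) and stayed near it in the other lists (98.4th and 97.35th). *Srsf9* had the lowest REX1 value (8.935th), beside the 73.48th and 91.02nd. *Srsf5* was at the 87.62nd percentile for REX1, the 18.88th for RNF12 WT and the 39.7th for RNF12 H569A,C572A.

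The Sm ring and the U1 and U2 particle proteins had lower REX1 than RNF12 WT medians. Of the 8 Sm core genes, 7 had a REX1 summit, with a median percentile of 68 (50.9 to 98.1), and 8 had RNF12 WT and RNF12 H569A,C572A summits, with medians of 90.1 (8.34 to 99.7) and 80.9 (50.6 to 91.4). *Snrpn*, which encodes a tissue-restricted variant of the Sm B protein and lies in an imprinted locus with *Snurf*, had the highest REX1 value of the class, a fold enrichment of 11.61 (98.07th) at -40 bp from a TSS, and was at the 86.95th and 78.4th percentiles for the RNF12 lists. *Snrpe* was at the 50.9th percentile for REX1 but at the 99.66th for RNF12 WT and the 91.43rd for RNF12 H569A,C572A. *Snrpg* went the other way, with the 87.63rd, 8.341st and 83.46th percentiles. *Snrpd2* had no REX1 promoter summit, the nearest lying 6636 bp downstream, and was at the 96.83rd and 50.57th percentiles in the RNF12 lists.

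Of the 4 particle proteins, *Snrpc*, of the U1 particle, was at the 76.35th, 99.67th and 77.42nd percentiles and *Snrpa1*, of the U2 particle, at the 83.29th, 94.22nd and 88.4th. *Snrpa*, also of U1, was at the 26.06th for REX1, beside the 76.03rd and 74.96th. *Snrpb2*, also of U2, had its nearest REX1 summit 49701 bp downstream, while its RNF12 summits lay at -25 and -8 bp from a TSS at the 82.86th and 73rd percentiles.

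The SF3A and SF3B complexes hold U2 at the branch point. The 3 SF3A genes had promoter summits in every list, at the 73.04th, 33.57th and 71.68th percentiles for *Sf3a3*, the 56.78th, 27.62nd and 92.7th for *Sf3a2* and the 42.72nd, 91.64th and 75.6th for *Sf3a1*. Of the SF3B genes, *Sf3b4* led for REX1 (98.61st) and was also high for RNF12 WT (95.9th) and RNF12 H569A,C572A (89.43rd). *Sf3b3* had the second highest RNF12 WT value of all members, a fold enrichment of 12.27 (99.88th) at -396 bp from a TSS, although *Cog4* starts 127 bp away. *Sf3b1*, the branch point contact that is recurrently mutated in blood cancers, was at the 94.79th, 88.26th and 84.08th percentiles. *Sf3b6* was lowest for REX1, with the 34.95th percentile, beside the 65.68th and 55.44th.

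*Sf3b5* was the single member with no promoter summit in any list by the GENCODE annotation. Its nearest summits lay at -1665, -1600 and -1608 bp from the annotated TSS at chromosome 10 position 13005343, where the sequence is CpG-poor (GC 37.9%, CpG ratio 0.223). RefSeq, on the same assembly, places the start of the gene 3107 bp further downstream, at position 13008450, where the window is CpG-rich (GC 58.7%, CpG ratio 1.03). All 3 lists had a summit beside that start, at -41 bp for REX1 (fold enrichment 3.89, 28.59th percentile) and at 112 bp in both RNF12 lists (7.07, 93.26th, and 11.9, 81.07th). With RefSeq starts, 77 of 79 members had a promoter summit in each list (97.5%), and no other call of a member changed.

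LSM genes of the U6 ring, *Lsm2* to *Lsm8*, had medians of 66.2, 92.9 and 85.6, and 6 of the 7 were in the top 10% of the RNF12 WT list, beside 23.5% of all, 38.4% of CpG-rich and 54.7% of the other spliceosome genes. *Lsm7* was high in every list, with the 96.94th and 93.21st percentiles for REX1 and RNF12 WT and, with a fold enrichment of 30.92 (99.28th), the highest RNF12 H569A,C572A peak of all members. Its TSS is 66 bp from that of *Sppl2b*. *Lsm5* was low for REX1 (13.45th) and RNF12 WT (19.13th) and at the 58.02nd percentile for RNF12 H569A,C572A. Among the 6 LSM genes with other roles, *Lsm14a*, which encodes a processing body protein, was at the 98.18th, 84.68th and 98.33rd percentiles. *Lsm10* and *Lsm11* belong to the U7 snRNP, which processes histone transcripts. *Lsm10* was at the 97.18th, 93.9th and 61.67th percentiles and *Lsm11* at the 71.37th, 16.45th and 33.42nd.

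PRPF genes spread most widely in the REX1 list. All 13 had a REX1 and an RNF12 WT summit, with medians of 61.5 (34.1 to 94.4) and 92.5 (67 to 98.4), and 12 had an RNF12 H569A,C572A summit, with a median of 78.4 (72.5 to 90.5). *Prpf39*, the gene of a U1-associated factor, was at the 98.43rd percentile for REX1 and the 98.56th for RNF12 H569A,C572A, but at the 17.95th for RNF12 WT. *Prpf8*, the gene of the scaffold of the catalytic core, was at the 89.47th, 26.26th and 72.5th, with summits at -6, 30 and -5 bp from a TSS. *Prpf18*, which encodes a factor of the second catalytic step, had the lowest REX1 value of all members, a fold enrichment of 2.268 (0.4951st percentile) at 268 bp downstream, beside 7.477 (95.52nd) for RNF12 WT at 273 bp downstream. *Prpf31*, a tri-snRNP gene mutated in retinitis pigmentosa, was at the 24.7th percentile for REX1 and the 83.86th for RNF12 WT and had no RNF12 H569A,C572A summit nearer than 9713 bp.

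**Figure D3:**
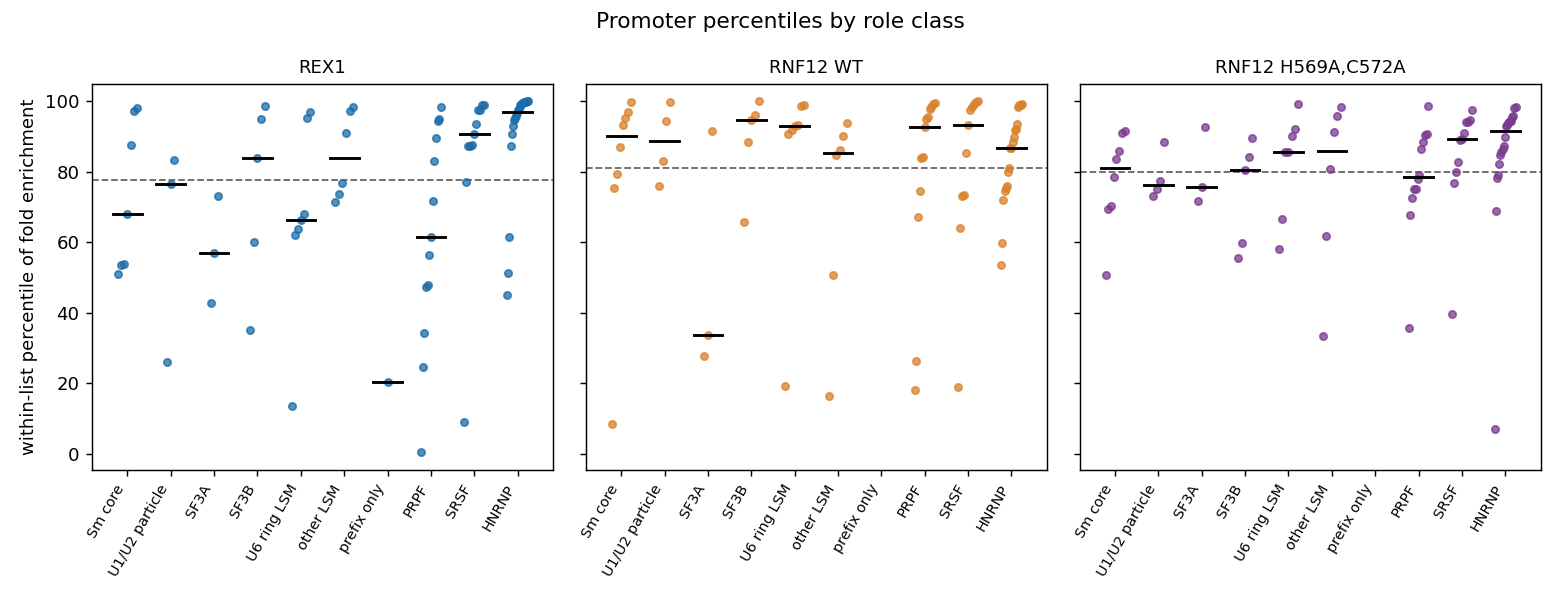
Within-list percentile of the strongest promoter summit by role class, 1 panel per list. Points are genes, short bars their median and the dashed line the median of all protein-coding genes, and in the REX1 panel the HNRNP median is at 97 and the PRPF median at 61.5.

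REX1 and RNF12 WT both had promoter summits at 74 members. In 35 of them the REX1 percentile was the higher and in 39 the RNF12 WT percentile, beside 6102 and 7622 of 13724 protein-coding genes with both, so the split of the members was near that of all genes. REX1 was above RNF12 WT at 14 of 19 HNRNP genes, whereas RNF12 WT was above REX1 at 10 of 13 PRPF genes and 6 of 7 genes of the U6 ring. These classes were the most lopsided of the larger ones. In the others, REX1 and RNF12 WT were above at 5 and 1 other LSM, 5 and 6 SRSF and 3 and 4 Sm core genes. The counts were 2 and 1 for SF3A, 2 and 3 for SF3B and 0 and 3 for the U1 and U2 particle proteins. These counts describe 1 library each and were not tested. The largest excess of REX1 was at *Prpf39* (80.49 percentile points), followed by *Snrpg* (79.29), *Srsf5* (68.74), *Prpf8* (63.22) and *Lsm11* (54.92). The largest excess of RNF12 WT was at *Prpf18* (95.02), followed by *Srsf9* (64.55), *Prpf31* (59.16), *Prpf40b* (50.01) and *Snrpa* (49.97).

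*Prpf39* and *Srsf5* are on chromosome 12, where the RNF12 WT list held 2289 peaks, beside 5892 for REX1 and 4303 for RNF12 H569A,C572A. On chromosome 10 it held 3070 peaks, beside 4554 for REX1 and 4672 for RNF12 H569A,C572A. Of the 10 members on chromosomes 10 and 12, 9, 8 and 8 had a promoter summit, with median percentiles of 87.6, 70.5 and 91.8. All protein-coding genes on these chromosomes had a summit in 74.6%, 66.8% and 75.7%, with medians of 79.9, 68 and 82.9, so the lower RNF12 WT median was shared by all genes there. The part of this in their RNF12 WT values was not tested. Without them, 67, 68 and 68 of 69 members had a promoter summit, beside 66.9%, 69.1% and 67.1% of all genes on the other chromosomes. The RNF12 WT median percentile was then 91.2 (86 to 93.9), beside 81.9.

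The strongest REX1 and RNF12 WT peaks overlapped by at least 1 bp at 49 of 74 members (66.2%), and any promoter peak of one overlapped any of the other at 73 (98.6%). Over all protein-coding genes with both, these shares were 56.2% and 93.7%. For REX1 and RNF12 H569A,C572A they were 57 (77%) and 74 of 74 members, beside 69.5% and 95.1%. Across the members with both peaks, 74 for either pair but not the same 74, Spearman's rho of the percentiles was 0.11 between REX1 and RNF12 WT and 0.472 between REX1 and RNF12 H569A,C572A, beside 0.227 and 0.252 over all genes with both. These are descriptions across genes, which share the 2 libraries and the base composition of promoters and are not independent replicates.

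**Figure D4:**
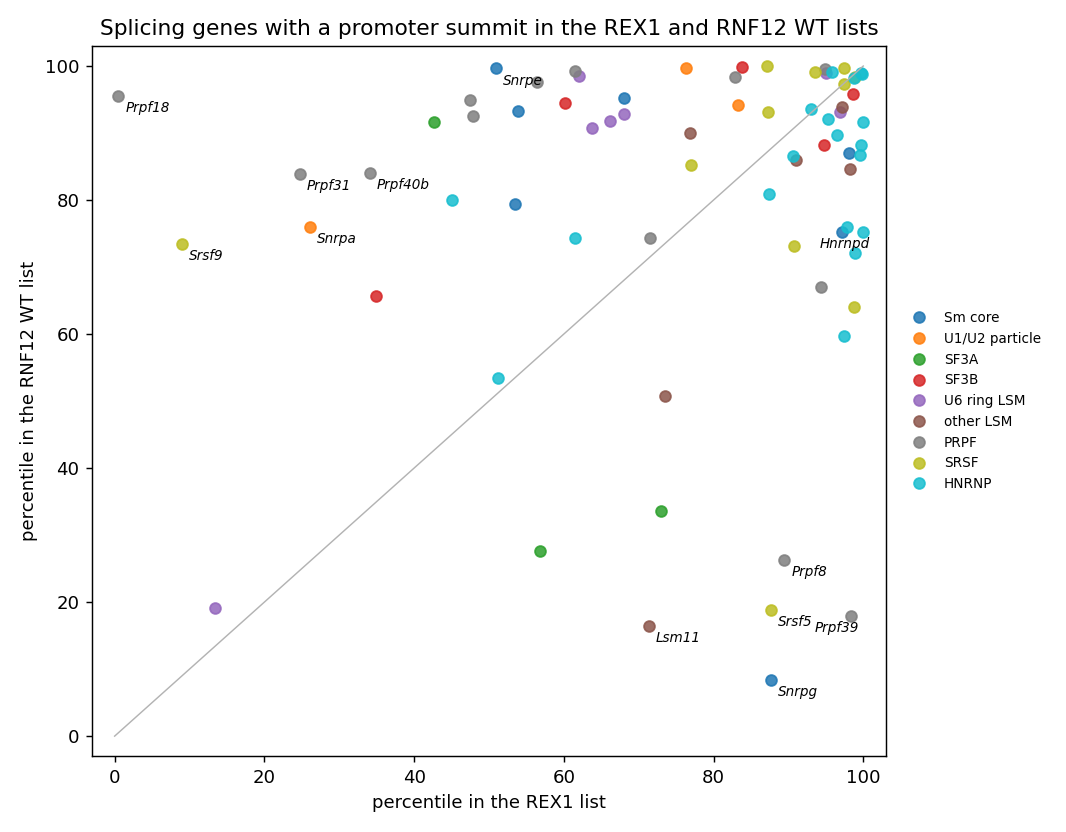
Within-list percentile of the strongest promoter summit in the REX1 list (x axis) and the RNF12 WT list (y axis) for the 74 members with both, coloured by role class, with the line of equal percentiles. Points spread on both sides of the line, 35 below and 39 above it, with *Prpf18* at the upper left and *Snrpg*, *Srsf5* and *Prpf39* at the lower right.

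The median distance of the strongest promoter summit to the nearest TSS was 94 bp (42 to 159), 110 bp (71 to 152) and 95.5 bp (62 to 141), beside 116, 132 and 97 bp over all protein-coding genes. The intervals of the members include the all-gene medians. With only the 5′ end of each gene as its TSS the medians were 197, 194 (134 to 305) and 217 bp (141 to 251), beside 179, 199 and 166 bp, which lie inside the 95% intervals of the members in all 3 lists. With TSSs of protein-coding transcripts only they were 130, 114 and 138 bp, beside 130, 146 and 114 bp. The sign of the difference thus depended on the TSS set for REX1 and RNF12 H569A,C572A, whereas the RNF12 WT median of members was the lower with each set. The strongest summit lay within 150 bp of a TSS at 60.5%, 61.8% and 63.2% of members with one, beside 56%, 53.8% and 63.5% of all genes, which is near the background. Summits lay upstream of the nearest TSS at 55.3% (44.1% to 65.9%) of members for REX1, beside 42.5% of all genes, and at 51.3% and 46.1% in the RNF12 lists, beside 43.5% and 42.3%. For REX1 the share of CpG-rich genes was 45%, which lies inside the interval of the members. Members have a median of 5 annotated TSSs, beside 3 for all genes. With only the 5′ end of each gene as its TSS the upstream shares were 31% (21.4% to 42.5%) of members and 32.8% of all genes for REX1, so the excess for REX1 was not seen with 1 TSS per gene.

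By the annotation of the gene itself, the strongest REX1 summits lay outside the gene at 22 of 76 members (28.9%, beside 26.8% of all genes), in a UTR exon at 25 (32.9%, beside 30.9%), in a coding exon at 11 (14.5%, beside 19%) and in an intron at 17 (22.4%, beside 20.1%). In the RNF12 WT list these shares were 27.6%, 31.6%, 13.2% and 23.7%, beside 27.9%, 26.7%, 19.8% and 22.1%. In the mutant list they were 26.3%, 40.8%, 6.58% and 25%, beside 25.7%, 34.5%, 18.7% and 18.2%. The all-gene share lay outside the interval of the members only for coding exons in the mutant list (2.84% to 14.5%).

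**Figure D5:**
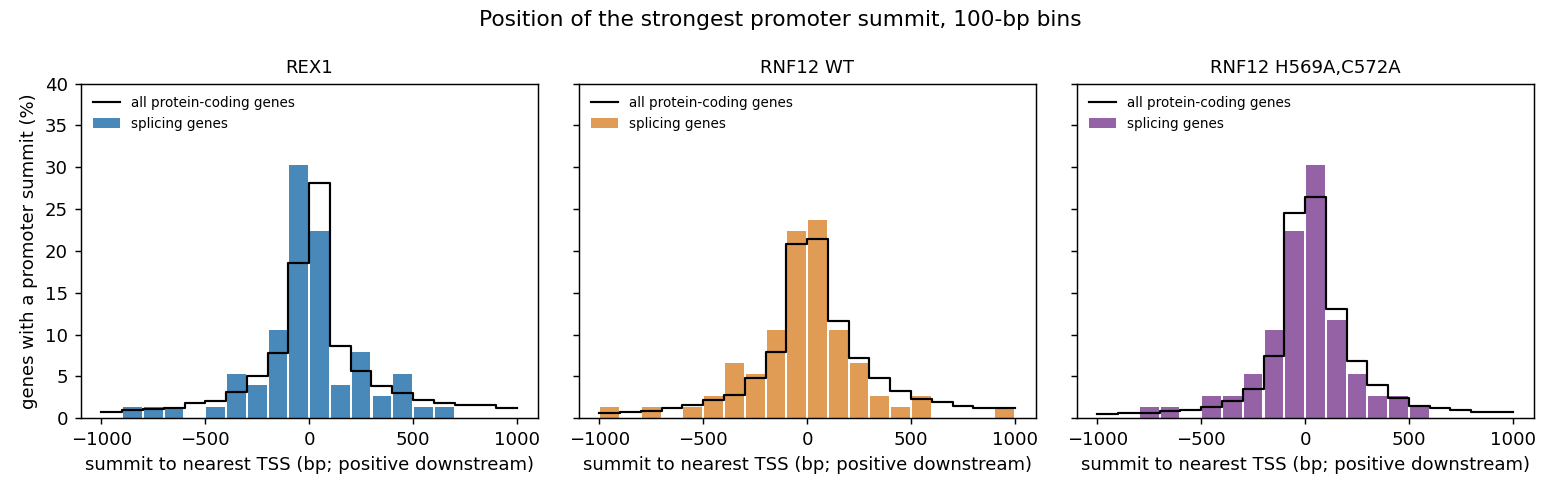
Distance of the strongest promoter summit from the nearest TSS in bins of 100 bp (x axis, positive downstream), as percent of genes with a promoter summit, for members (bars) and all protein-coding genes (line) in the 3 lists. Both are highest within 100 bp of the TSS, and medians of the distance for members are 94, 110 and 95.5 bp.

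Shared promoters limit the assignment of these summits. For 27 of the 79 members (34.2%) the promoter window also holds a TSS of another protein-coding gene, as for *Hnrnpa2b1* with *Cbx3* at 466 bp, *Hnrnpk* with *Rmi1* at 51 bp, *Lsm1* with *Bag4* at 1 bp and *Sf3a2* with *Plekhj1* at 4 bp. Such sharing was more frequent in members than in all protein-coding genes, of which 18565 of 21755 had no shared promoter. Without the 27 members, 50 of 52 members (96.2%) had a promoter summit in each list, beside 63.3%, 65% and 63.7% of all genes without a shared promoter.

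Away from promoters, intronic summits were less frequent in members than in all genes. An intronic summit over 1 kb from every TSS of the gene was found in 16 (20.3%, 12.9% to 30.4%), 10 (12.7%, 7.02% to 21.8%) and 16 members (20.3%), beside 35.6%, 35% and 35.7% of all protein-coding genes. The members are shorter, with a median length of 13819 bp beside 17414 bp. Per megabase of gene they held 15.5, 9.45 and 16.9 intronic summits, beside 25.7, 24.7 and 21.6 for all genes. The length in these rates is that of the whole gene, including the parts within 1 kb of a TSS, where no such summit was counted. The rates therefore do not fully correct for length. Of CpG-rich genes, which are longer (median 27012 bp), 46%, 45.2% and 45.5% had an intronic summit. Exonic summits at that distance were found in 14, 16 and 11 members (17.7%, 20.3% and 13.9%), beside 22.7%, 29.9% and 21.4%. The intervals of the members (10.9% to 27.6%, 12.9% to 30.4% and 7.96% to 23.2%) include these shares, and per megabase members held 10.1, 11.5 and 8.1 exonic summits, beside 7.37, 11.7 and 7.55. No summit beyond 1 kb in any list was found in 36 members (45.6%), beside 36.9% of all genes.

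*Prpf6*, the gene of a tri-snRNP bridging protein, had the most intronic summits, 9 over the 3 lists. The highest were an RNF12 H569A,C572A summit 1009 bp and an RNF12 WT summit 1067 bp from its TSS (95.62nd and 94.73rd percentiles), which lie within 1 kb of a TSS of *Zfp512b*, and a REX1 summit 29735 bp away (91.16th), which lies near no other TSS. The summits 2035 bp (REX1, 83.51st) and 2183 bp (RNF12 H569A,C572A, 76.64th) away lie within 1 kb of a TSS of *Samd10*. The 5 intronic summits of *Hnrnpf* lay within 1 kb of a TSS of the gene *4933440N22Rik*. *Lsm4* had intronic summits in every list, the highest for REX1 at 2035 bp (94.25th). *Sf3a3* had 2 summits in each RNF12 list and none for REX1, near 2226 bp and near 8596 bp, and those near 2226 bp have a word that occurs 3 times in the genome.

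*Snrpn* had an intronic REX1 summit 1890 bp from its nearest TSS with a fold enrichment of 10.58 (97.37th percentile), close to that of its promoter summit. *Lsm14a* had one at 1345 bp (10.49, 97.23rd). In *Srsf4* all 3 lists had a summit in the last coding exon, at 15476, 15313 and 15330 bp from the TSS and at the 45.11th, 41.37th and 25.5th percentiles. *Lsmem1*, which lacked RNF12 promoter summits, had 5 intronic summits, and its REX1 promoter summit was at the 20.36th percentile at -635 bp from a TSS.

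Of the 25 intronic summits of members in the RNF12 H569A,C572A list, 17 had a 32-base word that occurs more than once in the genome, beside 3 of 23 for REX1 and 3 of 14 for RNF12 WT. Over all protein-coding genes, 14518 of 23097 intronic summits in that list had such a word, beside 3600 of 27485 and 4222 of 26460 for REX1 and RNF12 WT, so the members were near the background. In the mutant list 48.1% of all summits had a word that occurs once, beside 84.7% and 84%. Restricted to words that occur once, 15, 8 and 6 members had an intronic summit, beside 32.2%, 31.1% and 18.7% of all genes, so the lower count in the mutant list went with a lower share over all genes. At promoters, 1, 1 and 2 strongest summits of members had a repeated word, beside 498 of 14678, 544 of 14992 and 939 of 14738 over all genes.

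The lists held 96050, 97602 and 98124 peaks, with a smallest −log10 q of 1.31 in each. No read totals were given with the peaks, and the sequencing depth of each library is therefore unknown. Peak lists hold no expression, so the label mESC could not be checked against marker genes. Restricting each list to peaks with −log10 q of at least 5 left 87.3%, 88.6% and 94.9% of members with a promoter summit, beside 57.2%, 56.2% and 65.4% of all genes.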

How the data were processed

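The peak lists of 3 libraries, 1 per protein, were analysed. The authors trimmed reads with Trim Galore 0.6.7, aligned them with Bowtie2 2.5.0 to mm10 masked at sites that differ between the parental strains, merged the alleles with SAMtools 1.10 and called peaks with MACS2 2.2.7.1 in narrow mode. The deposited columns give a fold enrichment over control, which is a ratio, −log10 p and −log10 q values, a score that was not used, and the summit. Summits were placed 1-based and assigned to TSSs of all GENCODE M21 transcripts on GRCm38. Percentiles rank the fold enrichment within a list. Members and gene lists were chosen with earlier results of these data known. The genes named are the 5 with the highest percentile in each list, those with a summit in no list or in 1, the 5 in each direction with the largest differences between REX1 and RNF12 WT, the 5 with the most intronic summits (6 with ties), those with a motif at the start codon, and the highest and lowest REX1 value in each role class. Other genes named in the text were chosen after their values were seen. Wilson intervals at 95% and order-statistic intervals of medians were used and no tests, since each list is 1 library. Intervals cover counting error only, and the depth is unknown. Functions were tested on simulated peaks. Alternatives covered thresholds, distances, TSS sets, repeats and shared promoters. Python 3.11.15, numpy 2.4.6, pandas 2.3.3, scipy 1.17.1 and matplotlib 3.10.9 were used. The values of 1 member gene are not reported here by name.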

Additional observations from a re-analysis of the deposited data

How the results depend on the processing

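Of 105 recomputed values, 83 stayed inside the interval of the reported value or, for counts, within 1.5 times of it. Values keep the order of the lists used above. With the 20000 peaks of highest −log10 q in each list, the share of members with a promoter summit was 62%, 75.9% and 57% (35.3%, 40.3% and 28.3% of all genes), and 6, 2 and 3 members had an intronic summit (13.1%, 11.4% and 8.36% of all genes). The median distance for REX1 became 40 bp (83 bp over all genes). The median percentile became 66 (49.9 to 76.5) and 55.9 (46.7 to 69.6) in the RNF12 lists, and these intervals include the all-gene medians of 61.8 and 52, which those of the reported values did not. The interval for RNF12 WT also included it with −log10 q of at least 5 (70 to 85.7, beside 70.1) and without shared promoters (80 to 93.2, beside 80.5). In the mutant list it did so with 1 TSS per gene (78.9 to 89.1, beside 79.2). There the lower bound equalled the all-gene median, as rounded, with −log10 q of at least 5 (76.6) and with words that occur once (80). With −log10 q of at least 5, the share was 87.3% for REX1 and 88.6% for RNF12 WT, the RNF12 WT median percentile 81.4 and the REX1 intronic count 8 (57.2%, 56.2%, 70.1 and 25.3% over all genes). With 1 TSS per gene, the share was 88.6% and 86.1% in the RNF12 lists (63.4% and 62.5% of all genes), and median distances were 197, 194 and 217 bp. With the nearest summit they were 37, 43.5 and 53 bp (59, 63 and 66 bp over all genes). With words that occur once, 6 members had an intronic RNF12 H569A,C572A summit (18.7% of all genes). Leaving out chromosomes 10 and 12, RefSeq starts and CpG-rich members only were chosen after seeing the data and moved no value beyond its interval. No paired analysis was possible because each list comes from 1 library, and for the same reason no replicate could be left out.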
